A study of Rattus norvegicus with 36 samples.

Results

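The 6 core circadian clock genes Per1, Per2, Arntl, Clock, Nr1d1 and Dbp were followed in the nucleus accumbens of rats given saline or cocaine. They were chosen by their Ensembl identifiers (ENSRNOG00000007387, ENSRNOG00000020254, ENSRNOG00000014448, ENSRNOG00000002175, ENSRNOG00000009329 and ENSRNOG00000021027, in that order), by a rule that sets no threshold on their values, and are 6 of the 31546 genes in the count tables. All 6 were among the 15641 genes that passed the filter on low counts. Polyadenylated RNA was sequenced from 3 groups of male Sprague-Dawley rats aged 8 weeks, all injected intraperitoneally on successive days and killed on the day after the last injection. Sal–Sal rats received 15 injections of physiological serum, Sal–Coc rats received 13 serum injections and 3 cocaine injections as their labels count them, and Coc–Coc rats received 15 cocaine injections. The study's methods describe equal numbers of injections in all groups, 3 a day, with cocaine on the last day only in Sal–Coc rats. Each group holds 3 samples, which are pools of 2 rats by the methods and are named as single rats in the labels, and each pool was sequenced as 4 technical replicates that were summed. Injections were given by the experimenter late in the morning, under a light and dark cycle with lights on in the morning. By that schedule, with the last injection at noon and killing a day after the last cocaine injection, the nominal time of killing was around midday, in the light phase. The methods state that interval from the last cocaine injection, which Sal–Sal rats did not receive, and the actual hour for each pool is not given in the sources used here, so a difference in hour between groups was not tested. The labels of the groups conflict in part, since the descriptions call the Coc–Coc rats tolerant and the Sal–Coc rats acute responders, while the phenotype field calls them vulnerable and saline rats. The groups here follow the descriptions, which match the injections listed in the treatment field.

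The circadian clock is a feedback loop in gene expression that runs in most cells, including those of the striatum. The proteins of Arntl (also called Bmal1) and Clock form a dimer that binds E-boxes in DNA and switches on the Per and Cry genes, whose proteins return to the nucleus and block the dimer. The dimer also switches on Nr1d1 (REV-ERB alpha), a nuclear receptor that represses Arntl, and Dbp, a transcription factor that carries the rhythm to output genes through D-boxes. A single sampling time, as here, gives a level and not a phase or an amplitude.

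The promoters below are shown because they hold the letters through which members of the loop are known to act on each other. They come from RefSeq on the GRCr8 build, which is not the build of the counts, and run from 250 bases before to 50 bases after the start of the gene. The capitals mark matches, on either strand, to the E-box CACGTG, its variant CACGTT, the D-box TTANGTAA, the cyclic AMP response element TGACGTCA or the nuclear receptor half-site AGGTCA. All 6 genes matched an entry, and Arntl is listed there as Bmal1. Positions are those of the first letter, counted back from the start as negative numbers. Per2 (chr9:99496944-99497243, minus strand) held a D-box at -192 and CACGTT at -62, Arntl (chr1:176766078-176766377, plus strand) held AGGTCA at -15, and the other listed start of Nr1d1 (chr10:84229405-84229704, minus strand), downstream of the first, held CACGTG at -191.
Per2: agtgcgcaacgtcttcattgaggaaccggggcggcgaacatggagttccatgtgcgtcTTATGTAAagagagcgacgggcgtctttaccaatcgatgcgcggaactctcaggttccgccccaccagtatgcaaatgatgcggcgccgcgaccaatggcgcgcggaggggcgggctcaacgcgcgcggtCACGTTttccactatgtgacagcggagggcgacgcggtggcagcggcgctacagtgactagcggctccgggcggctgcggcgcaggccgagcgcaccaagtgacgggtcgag
Arntl: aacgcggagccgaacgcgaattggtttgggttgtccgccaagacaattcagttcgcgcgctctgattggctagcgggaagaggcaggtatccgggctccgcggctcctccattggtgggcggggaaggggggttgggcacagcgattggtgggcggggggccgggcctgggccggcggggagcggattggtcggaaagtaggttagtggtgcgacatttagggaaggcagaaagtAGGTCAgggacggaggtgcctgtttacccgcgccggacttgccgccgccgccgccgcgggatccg
Nr1d1: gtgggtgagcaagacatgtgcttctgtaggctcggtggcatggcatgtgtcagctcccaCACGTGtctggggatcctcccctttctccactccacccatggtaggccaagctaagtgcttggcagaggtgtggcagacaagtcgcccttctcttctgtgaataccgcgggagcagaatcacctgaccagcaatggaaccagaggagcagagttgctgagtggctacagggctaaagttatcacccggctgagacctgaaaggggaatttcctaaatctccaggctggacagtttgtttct
The first listed start of Nr1d1 held AACGTG, the same variant on the other strand, at -174. The windows of Per1, Clock and Dbp held none of these letters, which says nothing of sites elsewhere. Of 33469 promoters of this length, 6.42% held CACGTG, 4.83% CACGTT, 2.24% the D-box, 1.83% the cyclic AMP response element and 16.2% AGGTCA.

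The pools held 36372166 to 42449841 counts, and each member had 1465 or more counts in every pool. Levels are given as CPM, each gene's counts relative to the size of its library as scaled by edgeR's TMM method, which does not correct for gene length, so levels are compared between groups and not between genes. Technical replicates of the same pool differed by about the counting error (chi-square per degree of freedom of 1.00 to 1.02), and the pools of a group differed by far more (33.1 to 52.0). For the members too, the spread between pools mostly exceeded counting error, which would give a coefficient of variation of 1.29% to 2.30%. On TMM-scaled levels Clock in Sal–Sal was below it, at 0.448%. On counts relative to the library totals the value at or below counting error was instead that of Arntl in Sal–Sal (chi-square per degree of freedom of 0.861), and Clock in Sal–Sal was at 13.5. The p-values rest on the spread between pools, which may differ in dissection or handling as well as in treatment, and in bulk tissue fewer cells of a type and less RNA per cell cannot be told apart. Of the 10 fixed markers of striatal projection neurons, 0 could be given an identifier, so the labelled tissue was not checked by them.

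Per2, which encodes a repressor of the Arntl and Clock dimer, was higher in both cocaine groups than in Sal–Sal. Its level was 43.2, 52.6 and 49.6 CPM in the 3 Sal–Sal pools, 59.8, 76.7 and 74.9 CPM in the Sal–Coc pools, and 68.9, 84.03 and 95.1 CPM in the Coc–Coc pools. Every cocaine pool lay above every Sal–Sal pool, and the 2 cocaine groups overlapped. Against Sal–Sal (48.5 ± 4.78 CPM, SD, n = 3), Per2 rose 1.45-fold in Sal–Coc (70.5 ± 9.28 CPM, SD, n = 3), a log2 fold change of 0.54 with a standard error of 0.136 and an adjusted p of 0.0271 by the quasi-likelihood test of edgeR, adjusted by Benjamini-Hochberg over all genes tested. It rose 1.71-fold in Coc–Coc (82.7 ± 13.1 CPM, SD, n = 3), a log2 fold change of 0.77 (SE 0.136, edgeR adjusted p = 0.0172). Between Coc–Coc and Sal–Coc the log2 fold change was 0.23 with a 95% confidence interval of -0.07 to 0.53 (edgeR adjusted p = 0.599), which leaves room for no change as well as for a 1.45-fold rise.

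The rise of Per2 kept its direction whichever pool was left out, but its call did not. In Sal–Coc the edgeR adjusted p was 0.105 without Sal–Sal pool 1, 0.0866 without Sal–Coc pool 2 and 0.0882 without Sal–Coc pool 3. In Coc–Coc the edgeR adjusted p was 0.0552 without Sal–Sal pool 1, 0.0568 without Coc–Coc pool 2 and 0.0756 without Coc–Coc pool 3. Calls over all genes fell in the same fits. In Sal–Coc they were 982, 1203 and 1201, against 2572 with every pool. In Coc–Coc they were 292, 174 and 0, against 1702. Under the 8 alternatives of another kind (other methods, scalings, filters or sample choices), Per2 was called in both comparisons.

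Per1, the paralog of Per2 with the same role in the loop, was highest in Coc–Coc but did not pass the threshold in any comparison. Its level was 97.0, 113 and 101 CPM in Sal–Sal, 97.9, 125 and 122.5 CPM in Sal–Coc, and 135, 134 and 126 CPM in Coc–Coc. The Coc–Coc pools lay above every pool of the other groups, while Sal–Coc overlapped Sal–Sal, with its pool 1 near the bottom of the Sal–Sal range. The log2 fold change of Coc–Coc over Sal–Sal was 0.35 (SE 0.101, edgeR adjusted p = 0.0557), with a 95% confidence interval of 0.12 to 0.58 before any adjustment for the number of genes. It passed with DESeq2 (adjusted p = 0.0141), with edgeR on the 6 pools compared alone (0.0425) and without Sal–Coc pool 1 (0.0219), and over all alternatives the adjusted p ran from 0.0141 to 0.169. Sal–Coc against Sal–Sal gave 0.15 (interval -0.08 to 0.38, edgeR adjusted p = 0.327), and Coc–Coc against Sal–Coc gave 0.20 (interval -0.03 to 0.42, edgeR adjusted p = 0.568).

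**Figure D1:**
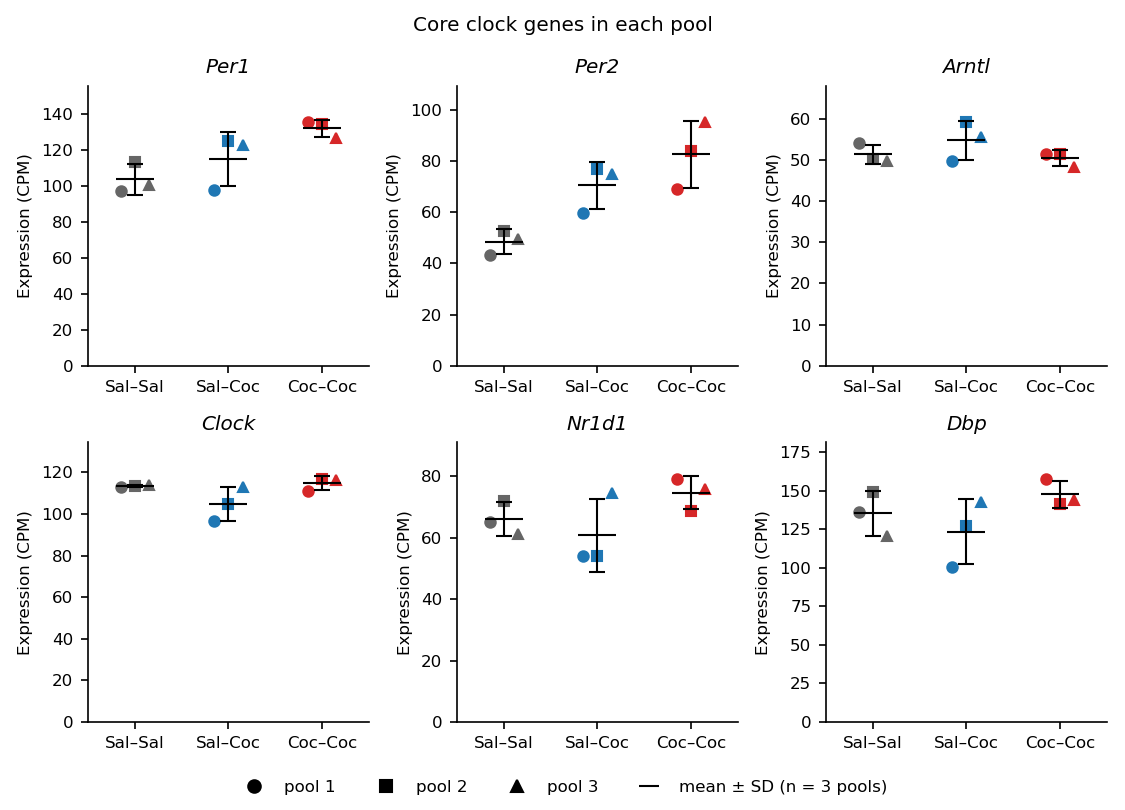
Expression in CPM (TMM-scaled, vertical axes from 0) of the 6 core clock genes by treatment group. Each symbol is a pool, and bars give the mean ± SD of 3 pools. Per2 was between 43.2 and 52.6 CPM in the Sal–Sal pools and at 59.8 CPM or more in every cocaine pool, while the pools of Arntl and Clock overlapped between groups.

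The genes of the activating dimer stayed within a narrow range. Arntl was at 54.2, 50.4 and 49.7 CPM in Sal–Sal, 49.8, 59.2 and 55.7 CPM in Sal–Coc, and 51.6, 51.6 and 48.4 CPM in Coc–Coc, and all groups overlapped. Its log2 fold change was 0.09 in Sal–Coc and -0.02 in Coc–Coc against Sal–Sal (edgeR adjusted p = 0.422 and 0.863). The intervals, before any adjustment for the number of genes, were -0.08 to 0.27 and -0.20 to 0.15. As folds they run from 0.947 to 1.20 in Sal–Coc and from 0.872 to 1.11 in Coc–Coc. The sign in Coc–Coc turned without Sal–Sal pool 1 or without Coc–Coc pool 3. Between Coc–Coc and Sal–Coc it was -0.12 (interval -0.29 to 0.05, edgeR adjusted p = 0.634).

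Clock, the partner of Arntl, was at 113, 113 and 114 CPM in Sal–Sal, 96.8, 105 and 113 CPM in Sal–Coc, and 111, 117 and 117 CPM in Coc–Coc. Its lowest values were Sal–Coc pools 1 and 2, and pool 3 of that group lay inside the Sal–Sal range. Log2 fold changes were -0.11 (interval -0.27 to 0.04, edgeR adjusted p = 0.285) in Sal–Coc and 0.02 (interval -0.14 to 0.17, edgeR adjusted p = 0.892) in Coc–Coc against Sal–Sal, the latter with its sign turned under upper-quartile scaling. Coc–Coc against Sal–Coc gave 0.13 (interval -0.03 to 0.29, edgeR adjusted p = 0.576).

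Nr1d1 and Dbp, the direct targets of the dimer outside the Per family, were lowest on average in Sal–Coc and highest in Coc–Coc, and no difference passed the threshold. Nr1d1 was at 65.1, 72.0 and 61.1 CPM in Sal–Sal, 54.0, 53.9 and 74.5 CPM in Sal–Coc, and 79.3, 68.7 and 75.9 CPM in Coc–Coc. Sal–Coc pools 1 and 2 lay below all other pools, and pool 3 lay among the Coc–Coc pools. The largest log2 fold change of Nr1d1 was 0.30 for Coc–Coc against Sal–Coc (interval 0.01 to 0.58, unadjusted p = 0.0444 and adjusted p = 0.521 by edgeR). Against Sal–Sal it was -0.12 in Sal–Coc (interval -0.41 to 0.17, edgeR adjusted p = 0.543) and 0.18 in Coc–Coc (interval -0.11 to 0.46, edgeR adjusted p = 0.388). These values depended on single pools. Without Sal–Coc pool 3 the log2 fold change of Coc–Coc against Sal–Coc was 0.47 (edgeR adjusted p = 0.302) and that of Sal–Coc against Sal–Sal was -0.29 (edgeR adjusted p = 0.0968), and without Sal–Coc pool 1 or pool 2 they were 0.22 and -0.04. In the RefSeq annotation Nr1d1 overlaps Thra on the opposite strand, and Per2 and Clock overlap noncoding genes on the opposite strand. The library kit keeps the strand, but the strand setting of the counting is not given in the sources used here, so the counts of these genes are uncertain to that extent.

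Dbp was at 136, 149.6 and 120.5 CPM in Sal–Sal, 101, 127 and 143 CPM in Sal–Coc, and 158, 142 and 144 CPM in Coc–Coc, and the pools of Sal–Coc spanned the widest range. The log2 fold change was -0.13 (interval -0.42 to 0.15, edgeR adjusted p = 0.492) in Sal–Coc and 0.13 (interval -0.15 to 0.41, edgeR adjusted p = 0.533) in Coc–Coc against Sal–Sal, and 0.26 (interval -0.02 to 0.54, edgeR adjusted p = 0.555) between the cocaine groups. Within Sal–Coc, pool 1 was lowest for 5 of the 6 members. The log2 fold change of Dbp in Sal–Coc against Sal–Sal was -0.01 without that pool (edgeR adjusted p = 0.971), -0.25 without Sal–Coc pool 3 (0.239), -0.22 without Sal–Sal pool 3 (0.263) and -0.06 without Sal–Sal pool 2 (0.79). Between the cocaine groups it was 0.13 without Sal–Coc pool 1 (edgeR adjusted p = 0.768) and 0.38 without Sal–Coc pool 3 (0.419). Per1 in Sal–Coc against Sal–Sal was 0.26 without Sal–Coc pool 1 (edgeR adjusted p = 0.0664) and 0.09 without Sal–Coc pool 2 (0.633).

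**Figure D2:**
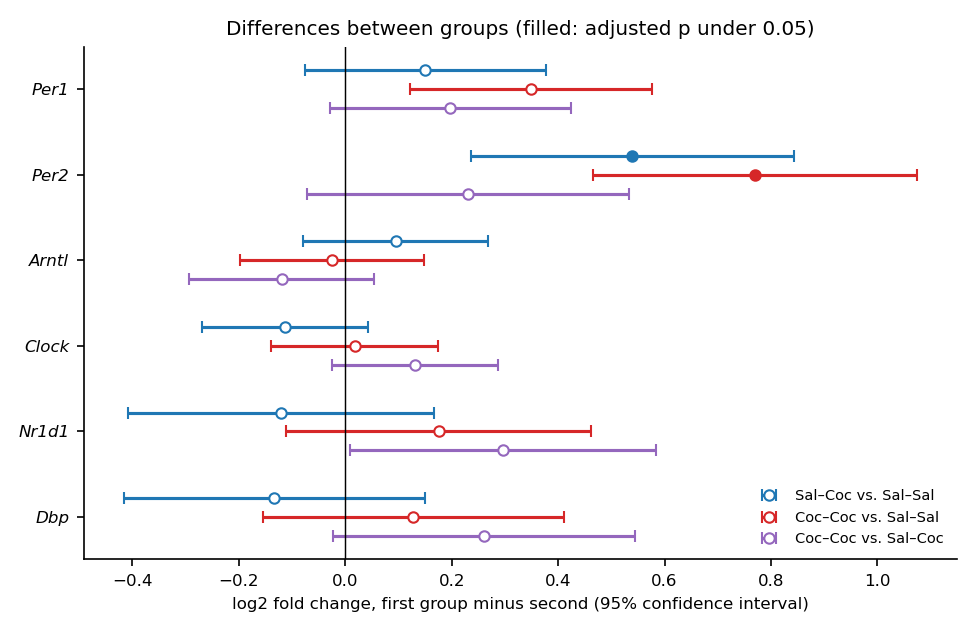
Log2 fold changes of the 6 genes in the 3 comparisons, first group minus second, with 95% confidence intervals from the edgeR fit (horizontal axis; filled symbols mark an adjusted p under 0.05). Only Per2 against Sal–Sal is filled, at 0.54 in Sal–Coc and 0.77 in Coc–Coc, and the intervals of Arntl, Clock and Dbp cross 0 in every comparison.

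By count, 1 of 6 members rose in Sal–Coc against Sal–Sal and 0 fell, where edgeR called 16.4% of all genes tested, 10.6% higher and 5.86% lower. In Coc–Coc against Sal–Sal 1 of 6 rose and 0 fell, where 10.9% of all genes were called, 7.13% higher and 3.75% lower. A count of 1 in 6 is near these shares. The pools of the groups did not overlap for 1 member, Per2, in Sal–Coc (36.1% of all genes) and for 2 members, Per1 and Per2, in Coc–Coc (36.7% of all genes). Between Coc–Coc and Sal–Coc edgeR called 0 members and 0% of all genes, 1 member, Nr1d1, and 9.29% of all genes had an unadjusted p under 0.05, and DESeq2 and limma-voom called 0 members. Pools did not overlap there for 1 member, Per1, against 17.2% of all genes. The median absolute log2 fold change of the members was 0.13 in Sal–Coc and 0.15 in Coc–Coc against Sal–Sal, below the 0.22 and 0.20 over all genes, and it was 0.21 between the cocaine groups, above the 0.12 over all genes. These comparisons share their groups and are not independent. With 3 pools against 3, an exact permutation test cannot go below p = 0.1, and Per2 against Sal–Sal in both cocaine groups and Per1 in Coc–Coc against each other group reached that value (two-sided).

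A ratio of counts within a pool does not depend on the scaling between pools. The ratio of Per2 to Arntl, a repressor gene over an activator gene, was 0.798, 1.04 and 0.997 in the Sal–Sal pools, 1.20, 1.30 and 1.35 in Sal–Coc, and 1.34, 1.63 and 1.96 in Coc–Coc. All cocaine pools lay above all Sal–Sal pools, and Coc–Coc pool 1 lay inside the Sal–Coc range. The mean difference was 0.44 in Sal–Coc and 0.79 in Coc–Coc on the log2 scale. The ratio of Per1 to Arntl was 1.79, 2.25 and 2.03 in Sal–Sal, 1.96, 2.11 and 2.20 in Sal–Coc, and 2.62, 2.60 and 2.61 in Coc–Coc, so that the Coc–Coc pools stood together above both other groups. The ratio of Dbp to Arntl did not overlap between Coc–Coc and Sal–Coc, where its mean was 0.39 higher on the log2 scale, and the ratio of Nr1d1 to Arntl overlapped in every comparison. These ratios were chosen after the data had been seen, and for each the smallest exact permutation p is 0.1.

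**Figure D3:**
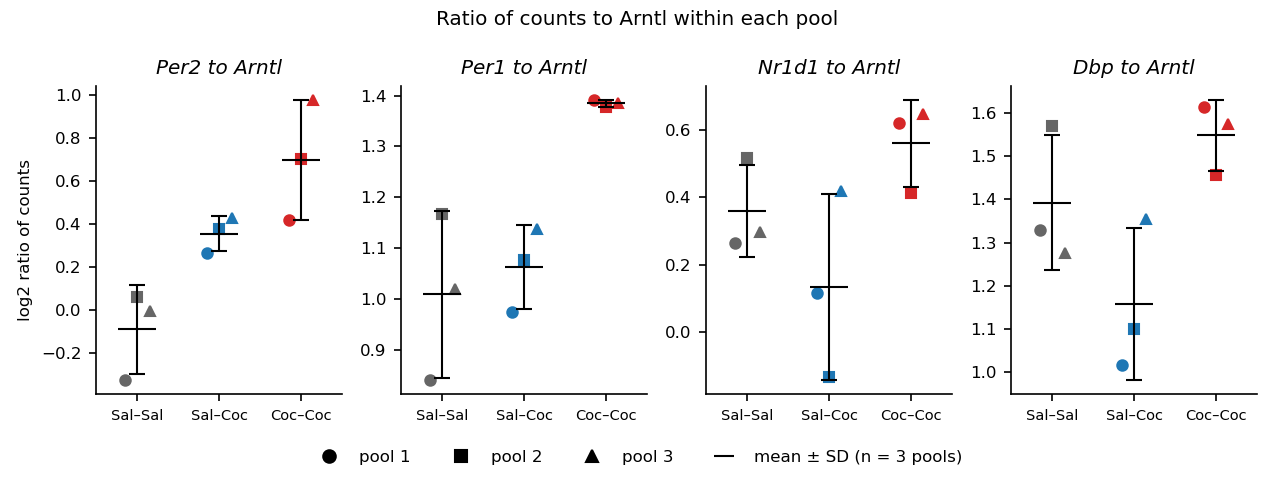
Log2 ratio of the counts of Per2, Per1, Nr1d1 and Dbp to those of Arntl in each pool (vertical axes, each with its own range). Symbols are pools and bars give the mean ± SD of 3 pools. The mean log2 ratio of Per2 to Arntl was -0.09 for Sal–Sal pools, 0.35 for Sal–Coc pools and 0.70 for Coc–Coc pools.

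Across the 9 pools, 15 pairs of members were compared on log2(CPM + 0.1). Nr1d1 and Dbp went together, with Pearson's r = 0.874 (permutation p = 0.000962, adjusted 0.0144) and Spearman's rho = 0.9 (permutation p = 0.00203, adjusted 0.0304). Without Sal–Coc pools 1 and 2, the farthest from the median of Nr1d1, r of this pair was 0.905. It was the only pair of the 15 with an adjusted p under 0.05. Per1 and Per2 gave r = 0.819 (permutation p = 0.0102, adjusted 0.0765) and rho = 0.767 (permutation p = 0.0214, adjusted 0.16), with r = 0.79 without Sal–Coc pool 1 and Sal–Sal pool 1. The permutations ran over all 9 pools without regard to group. The value of any pair, that of Nr1d1 and Dbp included, can thus mix differences between groups with the spread inside them. The groups differ in Per2, so the value of Per1 and Per2 mixes both, and 3 pools a group are too few for a value within groups. Clock with Nr1d1 (r = 0.73) and with Dbp (r = 0.764) rested on Sal–Coc pools 1 and 2, since r was -0.176 and -0.243 without them.

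**Figure D4:**
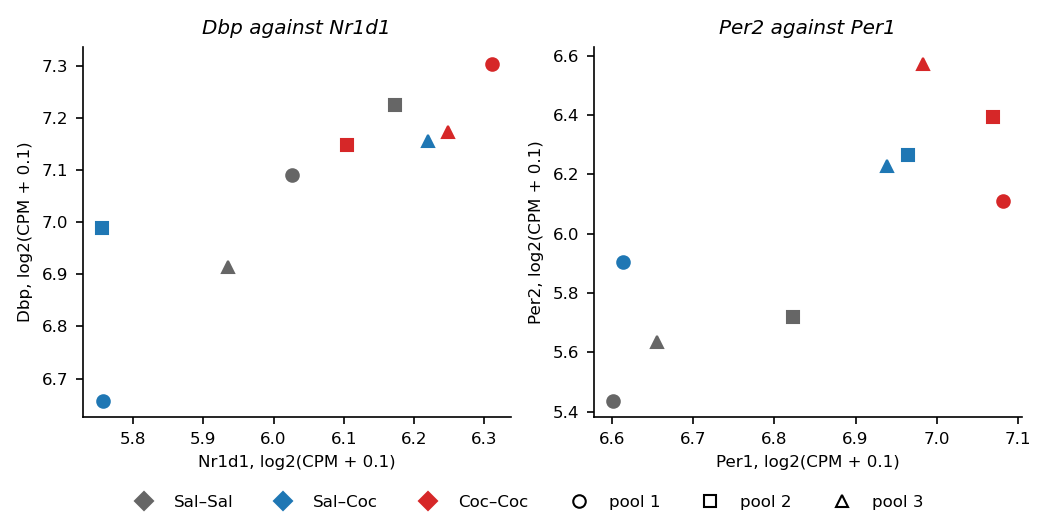
Dbp against Nr1d1 (left) and Per2 against Per1 (right), both as log2(CPM + 0.1) on both axes. Each symbol is 1 of the 9 pools, coloured by group. Dbp and Nr1d1 follow each other across groups (r = 0.874), and in the right panel the Sal–Sal pools sit at the bottom.

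The rest of the pathway could be named only in part. The tables list Ensembl identifiers without symbols, and symbols were joined through the values in the study's own lists of changed genes, which gave 3 of the 27 other clock genes, Per3, Ciart and Bhlhe41. They were named because the study called them on these samples, so their changes are not independent evidence of a direction. The partners Cry1, Cry2, Npas2, Nr1d2, Tef, Hlf, Rora and Rorb were among the 24 not analysed here. Against Sal–Sal, edgeR called 1 of the 3 higher and 1 lower in Sal–Coc, where 16.4% of all genes tested were called. In Coc–Coc it called 2 higher and 1 lower, where 10.9% of all genes were called. The 3 came from lists of changed genes, so these counts give no share for the 27 other clock genes.

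Per3, the remaining Period gene, followed Per2. It was at 84.3, 111 and 111 CPM in Sal–Sal, 145, 148 and 168 CPM in Sal–Coc, and 164, 182 and 188 CPM in Coc–Coc, with both cocaine groups above every Sal–Sal pool. It rose by a log2 fold change of 0.59 (SE 0.116, edgeR adjusted p = 0.0111) in Sal–Coc and of 0.80 (SE 0.116, edgeR adjusted p = 0.0161) in Coc–Coc. The latter call was lost without Coc–Coc pool 3 (edgeR adjusted p = 0.0756), a fit that called 0 of all genes in that comparison. Between Coc–Coc and Sal–Coc the log2 fold change of Per3 was 0.21 (edgeR adjusted p = 0.581), and the pools overlapped.

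Ciart, a repressor of the Arntl and Clock dimer, was at 6.99, 8.40 and 7.36 CPM in Sal–Sal, 6.73, 9.53 and 11.99 CPM in Sal–Coc, and 14.3, 14.0 and 14.9 CPM in Coc–Coc. Like Per1, it separated Coc–Coc from every other pool and overlapped between Sal–Coc and Sal–Sal. Its log2 fold change was 0.93 in Coc–Coc (SE 0.182, edgeR adjusted p = 0.0207) and 0.31 in Sal–Coc (SE 0.183, edgeR adjusted p = 0.267) against Sal–Sal. The call in Coc–Coc was lost without Sal–Sal pool 1 (edgeR adjusted p = 0.0743), Coc–Coc pool 2 (0.0599) or Coc–Coc pool 3 (0.0844), and Sal–Coc passed without its pool 1 (0.0347). Between Coc–Coc and Sal–Coc the log2 fold change of Ciart was 0.62 (edgeR adjusted p = 0.402), and no alternative called it. Pools of these 2 groups did not overlap for 17.2% of all genes.

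Bhlhe41, which encodes a repressor that competes for E-boxes, moved the other way. It was at 29.3, 30.6 and 27.8 CPM in Sal–Sal, 16.7, 18.3 and 17.3 CPM in Sal–Coc, and 20.5, 21.7 and 25.0 CPM in Coc–Coc, with no overlap between any of the groups. It fell by 0.75 on the log2 scale in Sal–Coc (SE 0.0900, edgeR adjusted p = 0.00376), called whichever pool was left out. It fell by 0.38 in Coc–Coc (SE 0.0892, edgeR adjusted p = 0.0295), a call kept in 4 of 9 fits that left out a pool (adjusted p between 0.0282 and 0.103). It was lost without Sal–Sal pools 1 or 2 and without any single Coc–Coc pool. Between Coc–Coc and Sal–Coc the log2 fold change was 0.36 (edgeR adjusted p = 0.344, DESeq2 adjusted p = 0.042, and 0.042 to 0.957 over all alternatives).

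**Figure D5:**
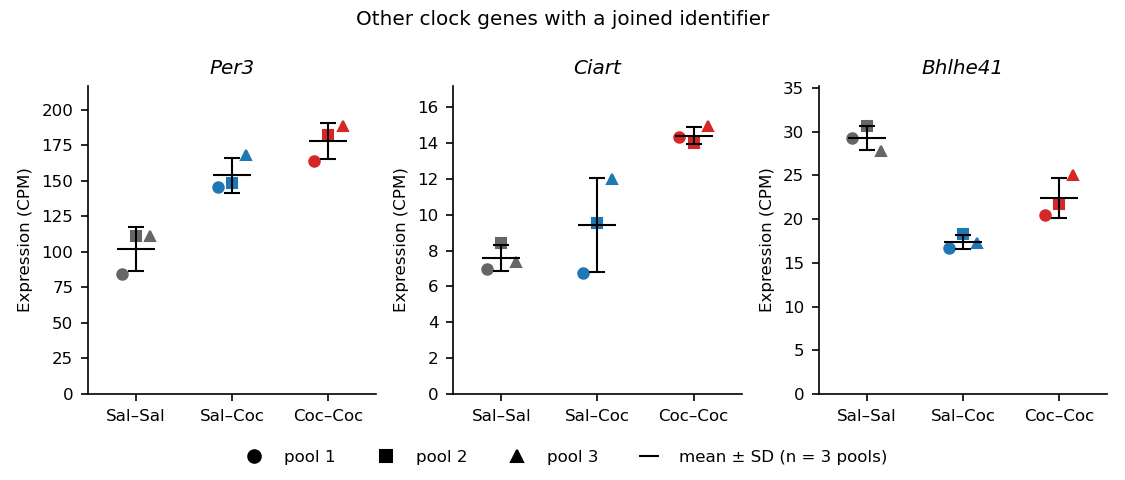
Expression in CPM (TMM-scaled, vertical axes from 0) of Per3, Ciart and Bhlhe41 by group. Symbols are pools and bars give the mean ± SD of 3 pools. Per3 was at 145 CPM or more in every cocaine pool against at most 111 CPM in Sal–Sal, and Bhlhe41 was at 25.0 CPM or less in the cocaine pools against 27.8 CPM or more in Sal–Sal.

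Other signals that vary with cell makeup or time of day were looked up through the same join. Of 12 fixed glucocorticoid receptor targets, 1 was named, Tsc22d3, which encodes a transcriptional regulator induced by glucocorticoids. It was at 123, 105 and 107 CPM in Sal–Sal, 82.4, 86.0 and 78.7 CPM in Sal–Coc, and 97.0, 93.3 and 106 CPM in Coc–Coc, and it fell by 0.43 on the log2 scale in Sal–Coc (SE 0.0826, edgeR adjusted p = 0.01). In Coc–Coc against Sal–Sal its log2 fold change was -0.17, with overlapping pools, and did not pass (edgeR adjusted p = 0.192). Coc–Coc against Sal–Coc gave 0.26 (edgeR adjusted p = 0.439). Among fixed markers of other cell types, 1 of 4 endothelial (Flt1), 1 of 4 interneuron (Pvalb) and 1 of 3 blood (Hba-a2) genes could be named. For astrocytes, oligodendrocytes, microglia, cortical glutamatergic neurons, septum and diencephalon, and choroid plexus, 0 could be named. A single named gene does not stand for its cell type. Flt1, a receptor of endothelial growth factor, was at 24.6 ± 4.12, 35.7 ± 2.22 and 32.5 ± 6.43 CPM in the order Sal–Sal, Sal–Coc, Coc–Coc (SD, n = 3 each). Its rise against Sal–Sal was called in Sal–Coc (edgeR adjusted p = 0.0433) and not in Coc–Coc (edgeR adjusted p = 0.121). Pvalb, a marker of a class of interneurons, was at 9.68 ± 2.07, 11.2 ± 0.967 and 6.66 ± 0.522 CPM (SD, n = 3 each), and its largest difference, -0.75 on the log2 scale between Coc–Coc and Sal–Coc, did not pass (edgeR adjusted p = 0.287). Hba-a2, a haemoglobin gene, was at 0.630 ± 0.339, 0.865 ± 0.360 and 2.69 ± 1.04 CPM (SD, n = 3 each), and rose in Coc–Coc against Sal–Sal (edgeR adjusted p = 0.0276). These levels rest on few counts, 12 to 147 a pool. The part of endothelial and blood RNA in the rise of Per2 was not tested. All of these come from the study's lists of changed genes, so their changes are not independent evidence of a direction.

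The genes most like each member across the 9 pools were looked for among 1454 named genes of at least 1 CPM, nearly all from the study's lists of changed genes. Per2 was closest to Pask (r = 0.973, rho = 1), Ogt (0.964, 0.95) and Tcte3 (0.963, 0.983). Per1 was closest to AABR07007715.1 (0.978, 0.933), Xkr8 (0.964, 0.933) and Tsga10 (0.959, 0.917). For Clock these were Dlg2 (0.924, 0.633), Grm5 (0.921, 0.833) and Lrrc7 (0.916, 0.55). For Nr1d1 and Dbp the closest gene was the other of the pair, ahead of Fgf2 (0.794, 0.683) and Mettl11b (0.748, 0.683) for Nr1d1 and of Mettl11b (0.871, 0.7) and Fgf2 (0.795, 0.633) for Dbp. For Arntl the values were lower, with Scube1 (0.679, 0.7), Extl1 (0.671, 0.433) and Plekhg5 (0.661, 0.533) at its head. Because the candidates were nearly all chosen for a change between groups, these values depend on that choice. They cannot say whether closer genes, for Arntl or another member, lie among the tested genes without a symbol. The values in brackets are r and rho across pools that share libraries and group means, and they describe likeness without a test.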

How the data were processed

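Per technical replicate, the authors deposited read counts per Ensembl gene, with no normalization. Before that, by the study's methods and the submitters' processing notes, they demultiplexed with bcl2fastq 2.17.1.14, trimmed and filtered reads, aligned them with STAR to the Ensembl rat genome, dropped reads mapping more than once and counted them (HTSeq 0.5.3 is listed). The replicates were summed per pool.

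Groups came from the description field of the sample labels, with which the phenotype field conflicts for both cocaine groups. In R 4.3.3, edgeR 4.0.16 filtered genes with filterByExpr, scaled pools by TMM and fitted all 9 of them together by quasi-likelihood. Genes with a Benjamini-Hochberg adjusted p under 0.05 were called. Alternatives used DESeq2 1.42.0, limma-voom (limma 3.58.1), other scalings and filters, the compared pools alone, the pool number as a block, technical replicate a alone and the omission of each pool. The scripts were tested on simulated data. Two-sided exact permutation tests used log2(CPM + 0.1). With these depths counting error was mostly smaller than the spread between pools, apart from the values of Clock and Arntl in Sal–Sal given above.

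Symbols of genes other than the members were joined by matching the study's published fold changes to fold changes recomputed from the counts. These columns served only as keys. Of 1539 symbols, 1506 led to a single identifier, and the only member among them, Per2, led to the identifier of the rule. Text names all members, the other clock genes that were called or are direct partners, and the 3 genes most correlated with each member. The members and lists were chosen with earlier results of these data known.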

Additional observations from a re-analysis of the deposited data

How the results depend on the processing

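Of 306 values of the 6 members under the alternatives, 294 kept their direction and their side of the threshold. The count of members called in Coc–Coc against Sal–Sal was 2 with DESeq2 and 2 with the 6 pools compared alone, and it ranged from 0 to 2 when a pool was left out. In Sal–Coc it ranged from 0 to 1. Arntl in Coc–Coc ranged from -0.043 to 0.029 when a pool was left out, with 0.029 without Sal–Sal pool 1 and 0.006 without Coc–Coc pool 3, and Clock turned to -0.01 under upper-quartile scaling. Of the 3 other clock genes named, 0 to 3 were called in Coc–Coc against Sal–Sal without 1 pool, and DESeq2 called 1 between the cocaine groups. Over all genes, Sal–Coc against Sal–Sal gave 2572 calls, 1445 with the 6 pools alone and 982 to 2835 without 1 pool. Coc–Coc against Sal–Sal gave 1702, 2869 with DESeq2, 1057 with technical replicate a alone and 0 to 2131 without 1 pool, with 0 left without Coc–Coc pool 3. Coc–Coc against Sal–Coc gave 5 with no filter, 153 with DESeq2, 3 with technical replicate a alone and 0 to 1 without 1 pool. Fits without a pool have fewer samples, and the cause of the other shifts was not tested.

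The pool numbers 1 to 3 recur in each group. Same-numbered pools did not deviate together (mean r of -0.03 over 9 pairs, -0.376 to 0.249), against 0.017 for 18 other pairs, so the numbers were not taken to pair the pools. When the pool number entered the fit as a replicate block, the calls of the members did not change, 1126 genes were called in Coc–Coc against Sal–Sal, and Bhlhe41 there had an edgeR adjusted p of 0.0503.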

Other observations

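The balance of the activating genes was examined after their values had been seen. It was 1 of several ratios of counts tried in each comparison, with no adjustment for their number. Many of these tests reached the smallest possible p of the exact permutation test. Those of Per2 to Clock and of Per3 to Arntl, not described further here, did so in both cocaine groups against Sal–Sal. The ratio of Clock to Arntl counts was lower in every Sal–Coc pool than in every Sal–Sal and every Coc–Coc pool, by 0.21 and 0.25 on the log2 scale (two-sided exact permutation p = 0.1 in both, the smallest that 3 pools against 3 can give), although neither gene's own level passed the threshold. The ratio of Dbp to Nr1d1 differed by -0.01 in Sal–Coc and -0.04 in Coc–Coc against Sal–Sal (exact permutation p = 1 and 0.4). The ratio of Per2 to Per1 was 0.39 higher in Sal–Coc and 0.41 higher in Coc–Coc than in Sal–Sal on the log2 scale, with no overlap of pools (exact permutation p = 0.1 in both). The mean differed by 0.02 between the cocaine groups. Its values were 0.446, 0.465 and 0.492 in Sal–Sal, and 0.611, 0.615 and 0.611 in Sal–Coc. The Coc–Coc pools were scattered, at 0.51, 0.626 and 0.752, with pool 1 close to the highest Sal–Sal pool and below every Sal–Coc pool.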
